A study of Mus musculus with 15 samples.

Results

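CD34-negative a6-low cells of mouse skin tumours were compared between animals with a keratinocyte deletion of Sirt6 and wild-type animals. The comparison rests on the 2 libraries labelled KO and the 3 libraries labelled WT of this sort, 5 of the 15 libraries of the series, and was made across all genes. All animals were C57BL/6 and had been treated with DMBA and TPA, a mutagen and a phorbol ester tumour promoter, for more than 24 weeks. Tumour cells were sorted by flow cytometry on integrin alpha 6 (a6, the product of Itga6) and CD34. The other 10 libraries, 2 KO and 3 WT each of CD34-negative a6-high and CD34-positive a6-high cells, served to estimate the spread and to set the differences beside those of the other sorts. The KO genotype is given as K14-cre with SIRT6 flox/flox, so Cre is driven by a promoter of basal keratinocytes and cells of other types in the sort would keep Sirt6. The labels give no genotype beyond WT for the controls, no age or sex, and do not give the number of animals behind each group. The p-values measure only the spread between these libraries, which may be technical among the WT libraries. By their sex-linked genes, given below, the 2 KO libraries came from different animals. The libraries are called KO1, KO2, WT1, WT2 and WT3 by their labelled replicate numbers.

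SIRT6 is an NAD-dependent deacetylase of histone H3 that sits at promoters and at DNA breaks. It is known as a corepressor of HIF1A at glycolytic genes and of MYC at ribosomal protein genes. It is also known as a repressor of NF-kB target genes, and it takes part in DNA repair. Integrin alpha 6 is a laminin receptor that anchors basal keratinocytes to the basement membrane. Keratinocytes lower it as they leave the basal layer and switch from Krt5 and Krt14 to Krt1 and Krt10, and CD34 marks hair follicle bulge cells and a subset of skin tumour cells.

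The 5 libraries held 10.08 M (WT2) to 28.62 M (KO1) reads counted in genes (M, 1e6), and 15885 to 19380 genes were detected. Sirt6 was at 7.23 and 7.34 CPM (counts per 1e6 gene counts) in KO1 and KO2 and at 7.48, 10.5 and 7.31 CPM in WT1, WT2 and WT3, and the groups overlapped (log2 -0.21 ± 0.33 SE, adjusted p = 0.919, edgeR). Reads were summed over the whole of Sirt6 and no label names the floxed exons, so this level does not check the genotype, and KO means labelled KO throughout. Itga6 was at 67.9 CPM in KO1, 94.1 in WT2 and 174 in WT3, but at 445 in KO2 and 471 in WT1, within the range of the a6-high libraries (263 to 576 CPM). Krt10 was split the opposite way, with 8555, 12271 and 5777 CPM in KO1, WT2 and WT3 and 1833 and 2837 CPM in KO2 and WT1. KO2 and WT1 thus went against their a6-low label at the RNA level, 1 library in each group, and results are given without them where they matter. The Y-linked gene Ddx3y was at 74.9 CPM in KO2 and at no more than 0.222 CPM in the other 4 libraries, whereas Xist was at 0.207 CPM in KO2 and at 37.1 to 61.2 CPM in the others. KO2 thus had the pattern of a male and the other 4 libraries that of females. Krt14 had the highest count of any gene in each of the 5, Cd34 lay between 4.51 and 40.3 CPM, and T cell genes such as Cd3e, Cd3g and Cd2 had no counts in any library.

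In the fit of all 15 libraries with edgeR's quasi-likelihood test, 1 of 14652 genes passed an adjusted p of 0.05 (0.00683%), the enolase gene Eno1b, which rose. DESeq2 called 6 genes (0.041%). These were Eno1b, the gene copies Gm4735 and Rps4l described below, Eif2s3y, and the lower genes 1190007I07Rik and Rab6b. The Y-linked Eif2s3y was at 98.9 CPM in KO2 and had no counts in the other a6-low libraries, so its call rested on KO2 alone. At an unadjusted p under 0.05 there were 687 genes (4.69%). Both KO libraries lay above all 3 WT libraries for 1247 genes (8.51%) and below them for 935 genes (6.38%), and the median log2 fold change of all genes was 0.04. With 2 against 3 libraries there are 10 ways to split the samples, so an exact two-sided permutation test of a single gene cannot go below 0.2, and no gene was tested that way.

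The 2 KO libraries resembled each other less than most other pairs did. Pearson's r between log2 CPM profiles was 0.941 for KO1 and KO2, against 0.957 to 0.967 for KO1 with the WT libraries and 0.935 to 0.981 for KO2 with them. The first principal component of the 5 libraries (47.6% of the variance) ran from WT2 (-87.8) through KO1 (-25.5) and WT3 (-19) to WT1 (56) and KO2 (76.3), with the high-Itga6 libraries at one end. KO1 stood alone on the second component (25.3%) at -83.8, with the others between 3.6 and 38.1. None of the 4 components separated the genotypes.

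**Figure D1:**
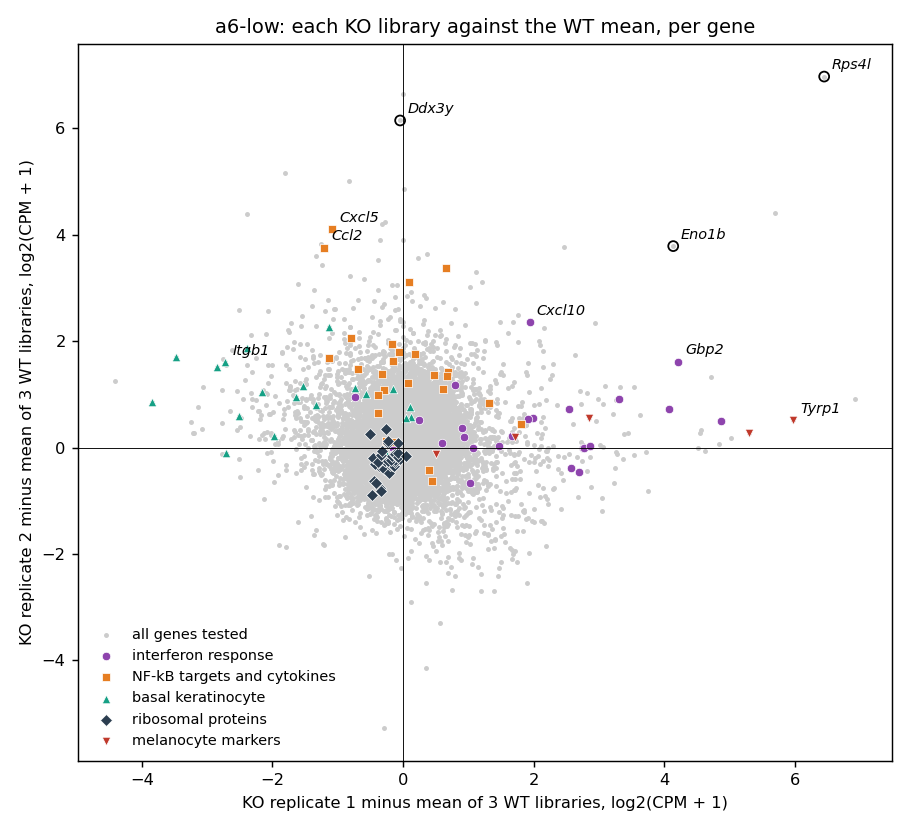
Each point is 1 of the 14652 tested genes, with the difference of KO1 (horizontal axis) and KO2 (vertical axis) from the mean of the 3 WT libraries in log2(CPM + 1). Interferon genes and melanocyte markers spread along the KO1 axis, NF-kB targets along the KO2 axis and basal keratinocyte genes to the upper left, while Eno1b and Rps4l lie high on both axes.

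How many genes passed depended on the filter for low counts. Without it, 156 of 25149 genes passed, 142 higher and 14 lower, and 148 of them had also been tested with the filter. The fit with the filter shared little of its spread estimate between genes (prior degrees of freedom 3.74), whereas the fit without it shared most (108). Of the 156, the libraries did not overlap for 73 and overlapped for 83. Among the 142 higher genes, KO1 was the highest library for 82 and KO2 for 60. The 156 of 25149 genes included 12 of 24 listed interferon response genes, 4 of 11 melanocyte markers and 4 of 8 sex-linked genes. They also held 3 of 26 NF-kB targets and cytokines, 3 of 26 antioxidant, 2 of 31 differentiation and 2 of 19 immediate early genes. The p53 target, oncofetal and neutrophil lists held 1 each.

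Eno1b and Gm4735 are near copies of Eno1, the main enolase gene of glycolysis. Gm4735 is annotated as a processed pseudogene and Eno1b as protein coding, a copy of the same coding length. Over 1302 bases Gm4735 differed from the Eno1 coding sequence at 5 bases (99.6% identical) and from that of Eno1b at 3, and Eno1b differed from Eno1 at 8 of 1305 bases. The longest stretch without a difference was 725 bases for both copies against Eno1. Rps4l, a transcribed processed pseudogene, is by contrast a distant copy of Rps4x, the X-linked gene of a small ribosomal subunit protein, with 157 differences in 789 bases (80.1% identical) and no shared stretch longer than 35 bases. The copies other than Eno1b were chosen after their values were seen, since the rule for named genes leaves out pseudogenes. Untranslated parts of Eno1, Eno1b and Rps4x were not compared. For Gm4735 and Rps4l, the 60-base windows with the most differences from the coding sequence of the parent gene are printed. They are from GENCODE M21 transcripts (GRCm38), on the coding strand, positions 1174 to 1233 for the enolase pair and 475 to 534 for the Rps4 pair counted from the first base of the coding sequence, with differing bases in capitals (2 in the first pair, 20 in the second).
Gm4735: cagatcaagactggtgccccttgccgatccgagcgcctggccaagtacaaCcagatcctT
Eno1: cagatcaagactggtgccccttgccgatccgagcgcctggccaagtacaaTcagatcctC
Rps4l: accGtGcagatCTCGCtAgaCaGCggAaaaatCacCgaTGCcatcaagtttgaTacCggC
Rps4x: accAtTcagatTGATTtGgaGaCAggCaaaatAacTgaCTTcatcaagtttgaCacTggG

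Eno1b was at 96.6 and 75.6 CPM in KO1 and KO2 and at 3.62, 5.1 and 5.06 CPM in WT1, WT2 and WT3 (WT mean 4.6 ± 0.844, SD, n = 3). Both KO libraries stood far above the WT libraries, which lay close together. The difference was 18.8-fold (log2 4.23 ± 0.29 SE, adjusted p = 3.43e-05). It was as large without KO2 and WT1 (log2 4.25, adjusted p = 0.000929). In a fit of the 5 a6-low libraries alone the log2 fold change was again 4.23, but the adjusted p was 0.0747.

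Gm4735 followed the same order, at 47.6 and 37.5 CPM against 7.34, 11.9 and 11.2 CPM. The groups did not overlap, but the gene did not pass edgeR's test (log2 2.07 ± 0.30, adjusted p = 0.0913), and it passed with DESeq2 (adjusted p = 3.49e-06). Eno1 itself was at 1722 and 1267 CPM in KO1 and KO2 and at 1748, 2489 and 2384 CPM in WT1, WT2 and WT3. It was lower in both KO libraries without overlap, with KO1 just below WT1, and did not pass (log2 -0.56 ± 0.26, adjusted p = 0.865). The sum over Eno1 and both copies was 1866 and 1380 CPM in KO and 1759, 2506 and 2401 CPM in WT, so for the sum the groups overlapped.

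The copies together made up 7.73% of this enolase sum in KO1 (95% Wilson interval 7.5% to 7.96%) and 8.2% in KO2 (7.91% to 8.5%). In WT1, WT2 and WT3 the share was 0.623% (0.548% to 0.708%), 0.677% (0.578% to 0.793%) and 0.678% (0.6% to 0.766%). The share thus hardly varied within a genotype, while the level of Eno1 varied between libraries. These intervals cover counting error only. Reads that align to several places were not counted, and a read inside a stretch that the copies share cannot be placed. Whether the counts of Eno1b and Gm4735 are reads of those genes or of Eno1 was not tested.

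Rps4l was at 321 and 463 CPM in KO1 and KO2 and at 5.13, 0.666 and 3.91 CPM in WT1, WT2 and WT3. The groups lay far apart, and WT2 rested on 6 counts. The gene did not pass edgeR's test (log2 6.85 ± 1.07, adjusted p = 0.12) and passed with DESeq2 (log2 6.9, adjusted p = 7.5e-06). Rps4x was at 533 and 550 CPM against 535, 687 and 602 CPM, and the groups overlapped. Another related copy, Rps4l-ps, 95.8% identical to Rps4l, was at 1.24 and 1.04 CPM in KO and had no counts in the 3 WT libraries, which allows levels of up to 0.141, 0.333 and 0.192 CPM (3 counts) in WT1, WT2 and WT3.

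Both Eno1b and Rps4l showed the same order in the other sorts. In CD34-negative and CD34-positive a6-high cells Eno1b was at 81.3 to 119 CPM in the 4 KO libraries against 4.01 to 7.3 CPM in the 6 of WT, and Rps4l at 287 to 513 CPM against 0.191 to 12.2 CPM. For neither gene did edgeR's test detect a KO difference in a6-low cells unlike that of the other sorts (Eno1b by log2 0.28 ± 0.39 and -0.04 ± 0.39, Rps4l by -0.77 ± 1.34 and 1.25 ± 1.30, adjusted p = 1.0 in each test). The SEs of Rps4l were wide, so a sizeable difference between sorts could be missed. Libraries of a genotype with the same number may share an animal, so the other sorts are not independent repeats.

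**Figure D2:**
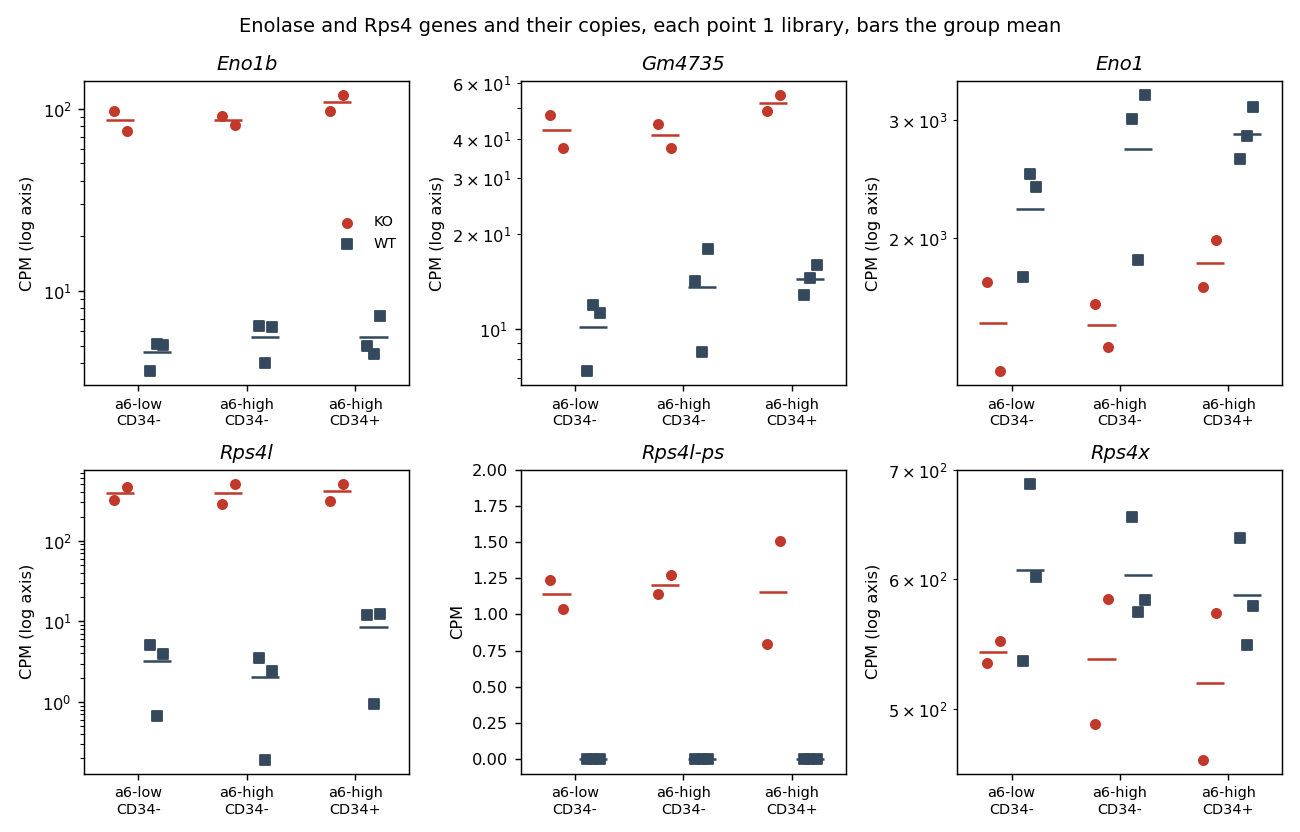
CPM of the enolase genes (upper row) and the Rps4 genes (lower row) in each of the 15 libraries, with bars for group means and log axes except for Rps4l-ps. In all 3 sorts both KO libraries lie above the WT libraries for Eno1b, Gm4735, Rps4l and Rps4l-ps, and below them for Eno1.

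Beyond Eno1b, the genes with the smallest p among those that did not overlap are described by their levels, since none of them passed (adjusted p = 0.865 for each, edgeR). Chit1, a chitinase, was at 364 and 569 CPM in KO1 and KO2 and at 249, 235 and 214 CPM in the WT libraries (log2 1.0 ± 0.24). Ugcg, which makes glucosylceramide, a lipid of the skin barrier, was at 99.5 and 149 CPM against 68.7, 35.5 and 29.7 CPM (log2 1.47 ± 0.36). KO2 was the highest library for both, and for Ugcg the WT libraries spread more widely than for Chit1.

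Hs3st1, a heparan sulfate sulfotransferase, was at 125 and 249 CPM in KO against 80.2, 70.0 and 55.3 CPM in WT (log2 1.45 ± 0.42). Rap2b, a small GTPase of the Ras superfamily, was at 28.3 and 74.3 CPM against 24.1, 11.2 and 10.6 CPM (log2 1.74 ± 0.48). In Rap2b, KO1 lay close to WT1, and most of the difference came from KO2. Rnf19b, an E3 ubiquitin ligase, had log2 1.62 ± 0.44 and Kctd11, a BTB domain adaptor of Cullin ubiquitin ligases, 1.13 ± 0.33. The immune regulators Irf5 (log2 1.09 ± 0.33) and Blnk (0.95 ± 0.29) were also among the 12, and in Irf5 KO1 (22.2 CPM) hardly exceeded WT1 (21.7 CPM). Gbp2, an interferon-induced GTPase, and Tyrp1, a melanosome enzyme, also belonged to the group and are described with their lists.

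The 12 lower genes were of low to moderate level and the KO libraries lay close to each other in most of them. Piwil2, a protein of the piRNA pathway of the germ line, was at 1.56 and 1.41 CPM in KO and at 10.9, 8.65 and 5 CPM in WT (log2 -2.46 ± 0.74). Arhgdig was at 2.18 and 1.08 CPM against 3.86, 11.2 and 5.77 CPM (log2 -2.07 ± 0.55). Oscp1 was at 1.05 and 1.37 CPM against 4.99, 2.55 and 3.4 CPM (log2 -1.60 ± 0.37). In Piwil2 the gap between the genotypes was wider than the difference between the KO libraries, and WT spread from 5 to 10.9 CPM.

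Among the other lower genes, Dap, a negative regulator of autophagy, was at 34.2 and 42.3 CPM in KO and at 74.3, 70.3 and 116 CPM in WT (log2 -1.18 ± 0.36). Alkbh7, a mitochondrial dioxygenase, was at 23.5 and 21.9 CPM against 28.8, 53.9 and 41.7 CPM (log2 -0.87 ± 0.26), and Mrpl2, a mitochondrial ribosomal protein gene, at 63.2 and 51.4 CPM against 74.5, 95.3 and 93.1 CPM (log2 -0.61 ± 0.19). Both mitochondrial genes had WT1 as the WT library nearest to KO. The dehydrogenase family gene Dhrs13 (log2 -1.35 ± 0.34), Morn2 (-1.13 ± 0.29), the selenoprotein gene Selenom (-1.10 ± 0.34), the membrane protein gene Tmem98 (-1.01 ± 0.31), Agpat2 of phosphatidic acid synthesis (-0.66 ± 0.21) and the aldehyde reductase gene Akr7a5 (-0.56 ± 0.17) made up the rest.

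The 12 lower genes had the same sign in the other sorts. All 12 were lower in KO in CD34-negative a6-high cells, without overlap in 12, and all 12 in CD34-positive a6-high cells, without overlap in 11. Of all 6813 genes that were lower in a6-low cells, 71.2% and 72.5% had that sign there, and 25% and 23.8% did not overlap. Of the 12 higher genes 10 were higher in each of the other sorts, without overlap in 7 and 5, beside 75.2% and 71.5% of all 7838 higher genes with that sign and 26.2% and 23.6% without overlap. Both sets of 12 were picked for no overlap and smallest p, with a spread estimated over all 15 libraries. All genes of a sign were not picked so, and their shares are not a like comparison. Hs3st1 was lower in both, at log2 -0.44 and -0.54 there, and the difference between sorts was 1.89 and 1.99 on the log2 scale with unadjusted p = 0.00805 and 0.00584 and adjusted p = 1.0. Over all genes, no difference between the KO effects in a6-low and either a6-high sort passed edgeR's test (0 of 14652 in each, 0.0%), with 168 and 187 genes at an unadjusted p under 0.05, and DESeq2 called 0 in each.

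**Figure D3:**
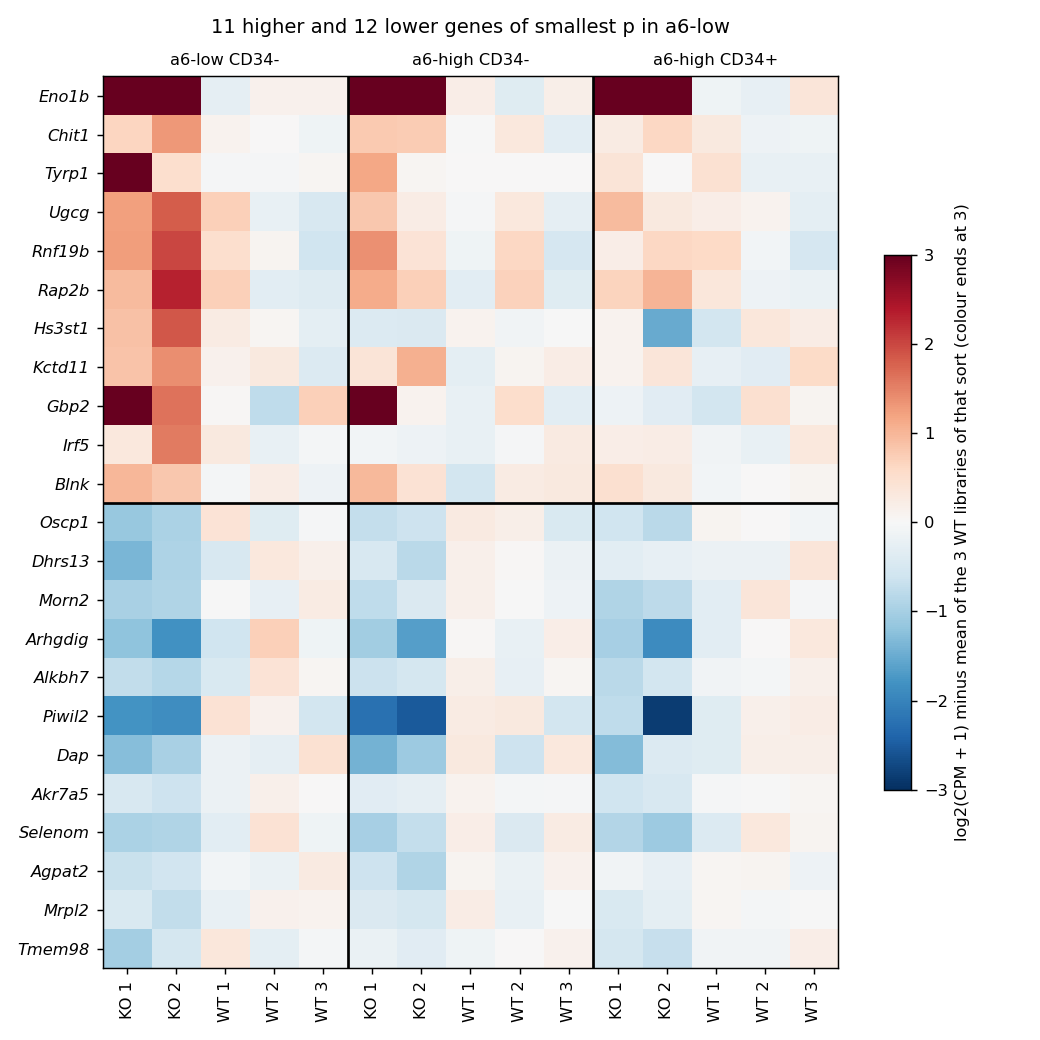
Colour gives log2(CPM + 1) of each library minus the mean of the 3 WT libraries of the same sort, for 11 of the 12 higher (upper) and the 12 lower genes (lower block) with the smallest p in a6-low cells. Eno1b is high in all 6 KO libraries, Tyrp1 in KO 1 of a6-low cells and less so in KO 1 of CD34-negative a6-high cells, and Gbp2 in KO replicate 1 of both CD34-negative sorts, and the lower block is blue in nearly all KO libraries.

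Glycolysis genes, the group for which SIRT6 is best known as a repressor, showed no common direction. Of 23 tested members 11 were higher and 12 lower in KO, the median log2 fold change was -0.06 against 0.04 for all genes, and no member passed. The list mean of log2(CPM + 1), 6.8 and 7.04 in KO and 6.8 to 7.12 in WT, overlapped between groups. The summed level, which the most abundant members lead, was lower in both KO libraries, at 14336 and 11192 CPM against 14695, 14972 and 15058 CPM in WT. Both KO libraries lay below the WT libraries for 4 genes, Eno1, Tpi1, Pkm and Ldhb (17.4%, against 6.38% of all genes), and above them for Pfkm only (4.35%, against 8.51%). Tpi1, triosephosphate isomerase, was at 787 and 668 CPM in KO and at 788, 1026 and 1050 CPM in WT (log2 -0.39 ± 0.20, adjusted p = 0.865), so KO1 and WT1 were alike. Pkm, pyruvate kinase, was at 2735 and 2550 CPM against 3129, 3169 and 3337 CPM, without overlap but also without passing. Pfkm, the muscle form of phosphofructokinase, was at 5.34 and 9.75 CPM against 4.99 to 5.21 CPM (log2 0.57 ± 0.36), and Pfkl, its liver form, at 225 and 183 CPM against 219, 304 and 285 CPM (log2 -0.40 ± 0.22).

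Several glycolytic genes followed the libraries more than the genotype. The glucose transporter gene Slc2a1 was highest in KO2 (541 CPM) and WT1 (419 CPM), with 222 to 363 CPM in the others, and the lactate exporter gene Slc16a3 was at 74.4 and 54.7 CPM in KO2 and WT1 and at 7.88 to 20.6 CPM in the others. These were the libraries with high Itga6. Ldha was at 4685 and 2604 CPM in KO and within that range in WT (3858 to 4466 CPM). Of the 20 hypoxia targets, which overlap glycolysis in their control by HIF1A, 12 were higher and 8 lower (median 0.12). Egln3 and Pfkfb4 lay above the WT libraries without overlap (10%, against 8.51% of all genes) and Ankrd37 below them (5%, against 6.38%). The carbonic anhydrase gene Car9 and the angiogenic factor gene Vegfa overlapped between groups.

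Of 24 respiratory chain genes 22 had a negative log2 fold change (median -0.31), though none lacked overlap, and the list mean of log2(CPM + 1), 8.85 and 8.52 in KO and 8.56 to 9.28 in WT, overlapped between groups. Cycs, cytochrome c, was at 231 and 166 CPM in KO and at 215, 354 and 326 CPM in WT (log2 -0.59 ± 0.29, adjusted p = 0.865), and Ndufv2 of complex I at 312 and 227 CPM against 293, 443 and 385 CPM. In both, WT1 fell between the KO libraries. Of 21 TCA cycle genes 9 were higher and 12 lower (median -0.09), 4 above WT without overlap (19%, against 8.51% of all genes) and 1 below (4.76%, against 6.38%). Members without overlap included Idh3b at 214 and 194 CPM against 154 to 167 CPM (log2 0.35 ± 0.16) and Idh2 at 124 and 97.2 CPM against 138 to 147 CPM (log2 -0.37 ± 0.18). These isocitrate dehydrogenases, the NAD- and the NADP-dependent mitochondrial forms, both lacked overlap and both missed the threshold.

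Most ribosomal protein genes lay lower in KO by a small margin. Of 35 entries tested, 34 had a negative log2 fold change (median -0.25) and 13 lay below the WT libraries without overlap (37.1%, against 6.38% of all genes), but none passed. The entry listed as Rpl24 was matched to another gene, Zbtb11, and is counted among the 34, with a KO to WT ratio of 0.999. It is also part of the other list values given here. Rpl26 was at 265 and 234 CPM in KO and at 267, 458 and 389 CPM in WT (log2 -0.57 ± 0.24, adjusted p = 0.865), with KO1 just below WT1. The list mean of log2(CPM + 1) was 8.99 in both KO libraries, 9.04 in WT1, 9.22 in WT3 and 9.46 in WT2, so KO lay just below WT1 and the gap rested on WT2 and WT3. Without WT2, the shallowest library, the median was -0.10. Among 22 MYC target and ribosome biogenesis genes 7 were higher and 15 lower (median -0.11), with Nme1 at log2 -0.54 ± 0.32 and Srm, spermidine synthase, at -0.37 ± 0.27. Many ribosomal protein genes have processed copies in the genome whose reads cannot all be placed.

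**Figure D4:**
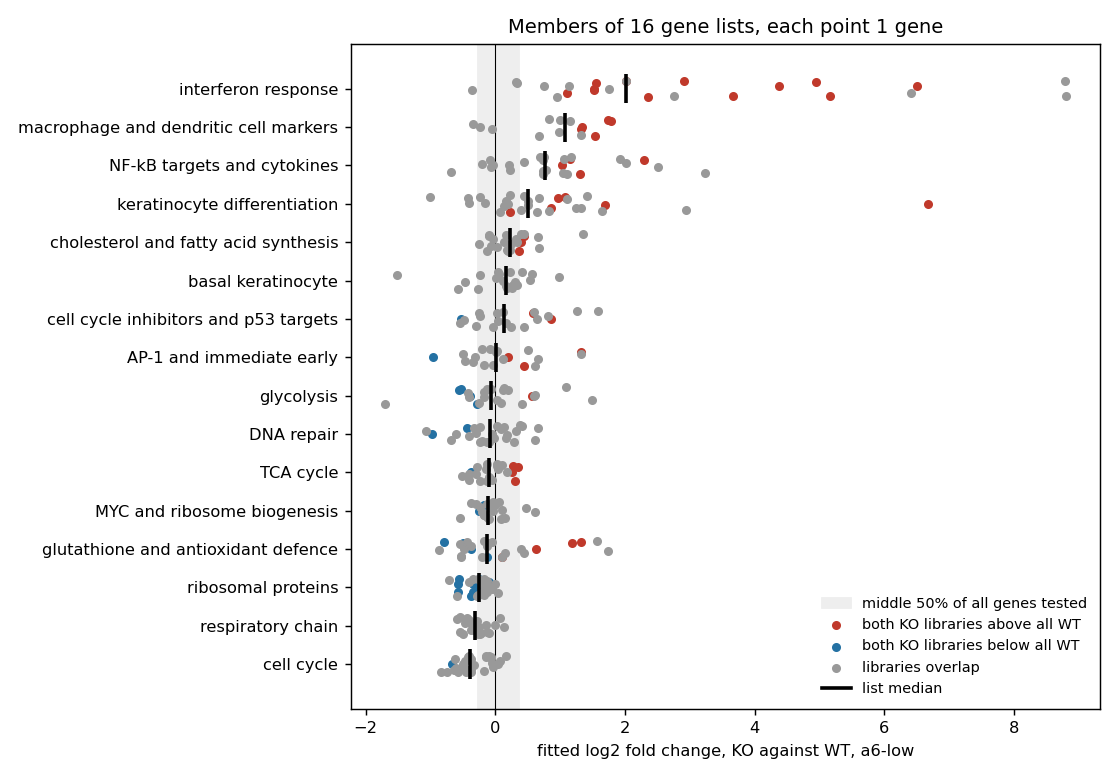
Fitted log2 fold changes of KO against WT in a6-low cells for members of 16 gene lists, ordered by list median (black bar), with the middle 50% of all tested genes shaded. The interferon list lies farthest to the right (median 2.02) and the cell cycle list farthest to the left (-0.39), and red or blue points mark members whose KO and WT libraries do not overlap.

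Interferon response genes were higher in KO, mainly in KO1. Of 24 tested members 23 were higher, 12 without overlap (50%, against 8.51% of all genes), and the median log2 fold change was 2.02, with no member past the threshold. Gbp2 was at 64.6 and 9.91 CPM in KO1 and KO2 and at 2.63, 1.11 and 4.87 CPM in WT (log2 3.67 ± 1.08, adjusted p = 0.865). Oas1a, which makes an activator of RNase L, was at 32.2 and 5.35 CPM against 2.12, 4.1 and 1.41 CPM (log2 2.91 ± 0.93). In both, KO1 stood far above KO2, which was nearer to the WT libraries. Oasl2 (43 CPM in KO1, 1.12 in KO2, 0 to 0.847 in WT) and the antiviral effector gene Ifit1 (20.7, 1.12 and 0 to 0.513) showed how far KO1 stood apart.

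The exception was Cxcl10, a chemokine that attracts T cells, at 257 and 344 CPM in KO1 and KO2 and at 125, 62 and 37.4 CPM in WT, high in both KO libraries. The list mean was 3.88 in KO1, 2.36 in KO2 and 1.90 to 1.98 in the WT libraries on the log2(CPM + 1) scale. Without KO1 the list's median log2 fold change was 0.55, and without KO2 it was 2.76. With all 3 libraries of KO number 2 left out of the fit, 6 genes passed, and besides Eno1b these were the interferon-induced genes Cxcl9, Ifi47, Iigp1 and Igtp, which were higher, and Arl4c, which was lower. This set compares KO1 alone with WT and assumes that a single KO library varies like the other groups. KO replicate 1 was also high in CD34-negative a6-high cells (list mean 4.15, against 1.69 to 2.25 in the other 4 libraries) and not in CD34-positive a6-high cells (1.47, against 1.48 to 2.43).

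Some markers of other cells also differed, those of melanocytes mainly in KO1, and the part of such cells in these differences was not tested. The 11 melanocyte markers summed to 145 CPM in KO1 and to 1.5 to 3.9 CPM in the other 4 libraries. Tyrp1 was at 63.1 CPM in KO1, 0.456 in KO2 and 0 to 0.0641 in WT, Dct at 52.8 CPM in KO1 and 0.0941 to 0.777 in the others, and Tyr at 6.98 CPM in KO1 with no counts elsewhere. All 3 encode pigment enzymes. Pmel, which forms the fibrils of the melanosome, was at 13.4 CPM in KO1, 1.95 in KO2 and 0.564, 1.33 and 1.22 in WT1, WT2 and WT3, so it was detected in every library and lay above WT in both KO libraries. Of the 18 macrophage and dendritic cell markers, 14 were tested and 5 of these lay above WT without overlap (35.7%, against 8.51%). The sum of the 18 was 375 and 318 CPM in KO and 182, 184 and 63.6 CPM in WT. The mean log2(CPM + 1) of the 14 tested, 3.31 and 2.78 in KO and 2.01, 3.02 and 1.57 in WT, overlapped between groups. In bulk RNA more such cells and more RNA per cell cannot be told apart.

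Antigen presentation genes made up most of that sum in the KO libraries. H2-Ab1 was at 106 and 73.7 CPM in KO and at 47.6, 43.8 and 16.6 CPM in WT (log2 1.32 ± 0.93, adjusted p = 0.865), and Cd74, the invariant chain, at 133 and 156 CPM against 90.2, 45.4 and 13.7 CPM. Lyz2, a lysozyme gene of myeloid cells, was at 8.11 and 5.6 CPM against 2.21, 3.22 and 0.641 CPM (log2 1.78 ± 0.76). The pan-leukocyte gene Ptprc stayed at or below 0.509 CPM in all 5 libraries and the macrophage gene Adgre1 at or below 0.545 CPM. Other lists of non-keratinocyte markers were low: T and natural killer cell markers summed to 0.998 to 3.67 CPM and erythroid markers to 0 to 0.222 CPM. Endothelial markers summed to 7.67 and 40.1 CPM in KO and to 18.3 to 38.4 CPM in WT. Of the 12 tested, 10 were lower in KO (median log2 -0.85), with Egfl7 and Esam below WT without overlap (16.7%, against 6.38%). The fibroblast and pericyte list, mostly Acta2 and Mmp2, summed to 95.7 and 106 against 65.2 to 108 CPM. S100a8 and S100a9, which keratinocytes of inflamed skin also express, led the neutrophil and mast cell list and overlapped between groups, and Ly6g and Csf3r were at or below 0.145 CPM. Cxcr2, a chemokine receptor of neutrophils, was at 8.36 and 3.94 CPM in KO against 2.16, 0.444 and 0.577 CPM in WT, the 1 of 3 tested members above WT without overlap (33.3%, against 8.51%).

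NF-kB targets and cytokines were higher in KO mainly through KO2. Of 26 tested members 21 were higher, 4 without overlap (15.4%, against 8.51%), with a median log2 fold change of 0.77 that turned to -0.31 without KO2 and was 0.24 without KO2 and WT1. The neutrophil chemokine gene Cxcl5 was at 2.11 CPM in KO1, 113 in KO2 and 3 to 8.94 in WT, and the monocyte chemokine gene Ccl2 at 74.7 CPM in KO1, 2370 in KO2 and 83.9 to 407 in WT. In both, KO1 lay below every WT library and KO2 far above. Lif, a cytokine of the interleukin 6 family, was high in both KO libraries, at 12.9 and 22 CPM against 5.41, 11 and 7.37 CPM (log2 1.15 ± 0.47, adjusted p = 0.865), as was the apoptosis inhibitor gene Birc3 at 47.6 and 76.5 CPM against 22.8 to 39.8 CPM.

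Immediate early genes showed no common direction (10 higher and 9 lower of 19, median 0.01). Egr2, a zinc finger factor, was higher in both KO libraries, at 189 and 215 CPM against 83.7, 86.5 and 70.8 CPM (log2 1.33 ± 0.45, adjusted p = 0.865). Its KO and WT libraries each lay close together. Ier3 was at 1040 and 1876 CPM against 1069, 271 and 396 CPM (log2 1.33 ± 0.62), where WT1 matched KO1.

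**Figure D5:**
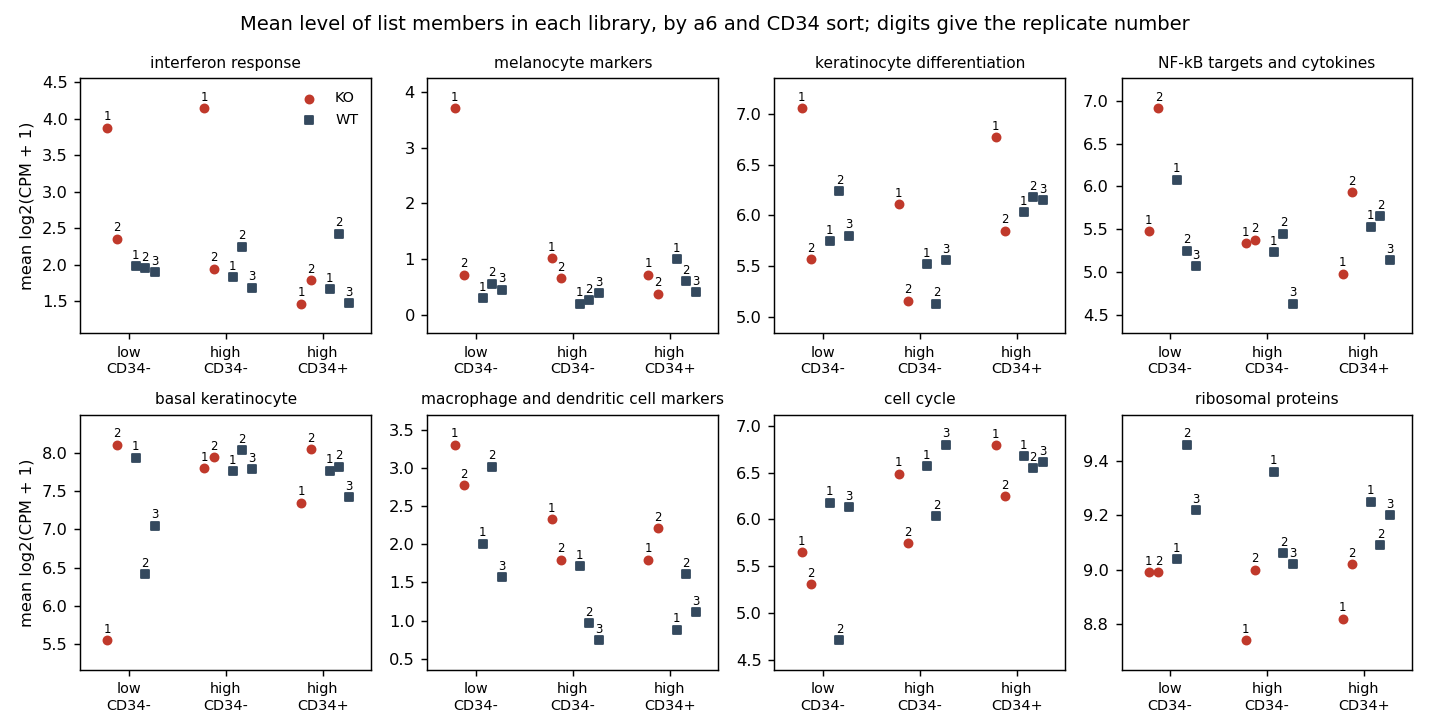
Mean log2(CPM + 1) over the tested members of 8 gene lists in each of the 15 libraries, by sort and genotype, with digits for the replicate number. KO1 is the highest a6-low library for the interferon, melanocyte and differentiation lists (3.88, 3.71 and 7.06) and KO2 for the NF-kB and basal lists (6.92 and 8.11), and no list but the ribosomal, interferon and melanocyte ones has all KO and WT a6-low libraries apart.

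Keratinocyte genes separated the libraries rather than the genotypes. The basal list mean was 8.11 in KO2 and 7.94 in WT1, 7.05 in WT3, 6.42 in WT2 and 5.55 in KO1, and its median log2 fold change of 0.17 turned to -1.76 without KO2 and to -1.39 without KO2 and WT1. Itgb1, the partner of several laminin and collagen receptors, was at 27.2 CPM in KO1 and 564 in KO2, with 83.6 to 500 CPM in WT. The hemidesmosome gene Col17a1 was at 22.1 and 470 CPM, with 76.4 to 441 CPM in WT. In both genes the KO libraries enclosed the whole WT range.

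Differentiation genes showed the mirror image. Of 29 tested members 24 were higher and 5 lower in KO (median log2 0.50), 6 without overlap (20.7%, against 8.51%), and the median was -0.36 without KO1 and 0.97 without KO2. Late genes such as Cdsn, corneodesmosin, were high in KO1 alone, at 26.2 CPM against 1.58 in KO2 and 1.74 to 1.89 in WT. The 6 members above WT in both KO libraries were Grhl3, Klf4, Cdkn1a, Calml3, Aloxe3 and Sprr3. Grhl3, a transcription factor of the epidermal barrier, was at 212 and 211 CPM against 180, 81.2 and 62.9 CPM, and Cdkn1a, the p21 cell cycle inhibitor, at 893 and 1482 CPM against 856, 643 and 463 CPM, and for both WT1 lay close to the KO libraries. Klf4, a factor of terminal differentiation, was at 208 and 209 CPM against 194, 202 and 137 CPM, a small gap. Sprr3, a cornified envelope gene, was at 0.654 and 0.664 CPM in KO with no counts in WT, and Aloxe3, a lipoxygenase of the barrier, at 1.78 and 2.7 CPM against 0.333 to 1.08 CPM.

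Cell cycle genes were lower in KO as a list (27 of 30 lower, median log2 -0.39), with 1 member, Tyms, without overlap (3.33%, against 6.38%). Tyms, thymidylate synthase, was at 59.7 and 59.5 CPM in KO and at 89.8, 62.6 and 130 CPM in WT (log2 -0.66 ± 0.33, adjusted p = 0.865), and Pcna, the sliding clamp of replication, at 129 and 121 CPM against 179, 127 and 197 CPM. WT2 lay next to the KO libraries in both. The list mean was 5.65 and 5.31 in KO and 4.71 in WT2, against 6.18 and 6.13 in WT1 and WT3, so WT2 was the lowest library of all, and the median was 0.01 without KO2 and WT1.

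Among 20 cell cycle inhibitors and p53 targets 13 were higher and 7 lower. Ccng1, cyclin G1, was at 141 and 149 CPM in KO and at 87.3, 98.1 and 105 CPM in WT (log2 0.59 ± 0.27, adjusted p = 0.865), and Phlda3, an AKT inhibitor, at 174 and 171 CPM against 230, 239 and 277 CPM (log2 -0.53 ± 0.23). These p53 targets stood on opposite sides of WT, each with 2 tightly grouped KO libraries. DNA repair genes, 26 in all, had a median of -0.07. Ogg1, the glycosylase that removes oxidised guanine, was at 2.4 and 2.28 CPM against 3.72, 5.21 and 4.87 CPM (log2 -0.97 ± 0.38), 1 of 2 members below WT without overlap (7.69%, against 6.38%).

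Antioxidant genes were split, with 4 of 26 above WT and 4 below without overlap (15.4% in each direction, against 8.51% and 6.38% of all genes). Srxn1, sulfiredoxin, was at 149 and 335 CPM in KO and at 106, 71.3 and 111 CPM in WT (log2 1.33 ± 0.42, adjusted p = 0.865), and Txnrd1, thioredoxin reductase, at 37.3 and 233 CPM against 75.2, 18.6 and 27 CPM, so that KO2 led both. Of 23 sterol and fatty acid synthesis genes 17 were higher (median 0.22), which rested on KO1: the list mean was 6.01 in KO1, 5.5 in KO2 and 5.47 to 5.61 in WT, and the median was -0.15 without KO1. The groups did not overlap for 3 members (13%, against 8.51%), among them Sqle, squalene epoxidase, at 335 and 251 CPM against 234, 220 and 226 CPM (log2 0.37 ± 0.23). The lipid regulator gene Pparg was at 5.6 and 3.77 CPM against 2.3, 1.44 and 2.44 CPM (log2 1.17 ± 0.50). Twist1, a factor of epithelial-mesenchymal transition, was low in all libraries and lower in KO, at 0.836 and 0.664 CPM against 2.49, 2 and 3.27 CPM (log2 -1.78 ± 0.65). Of the other 6 sirtuin genes none lacked overlap between KO and WT, with log2 fold changes from -0.32 to 0.17.

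The remaining lists gave few members that set the genotypes apart. Of 19 hair follicle and tumour stem cell genes 11 were higher and 8 lower (median log2 0.23), and Sox9, a factor of follicle and tumour stem cells, was at 943 CPM in KO2 and 487 in WT1 and at 210 to 219 in the others, high in the libraries with high Itga6. Of 16 epithelial-mesenchymal transition genes 11 were higher (median 0.34), of 17 IGF pathway genes 10 (median 0.19) and of 5 oncofetal genes 3 (median 0.27). Sebocyte markers (10 tested, median -0.20) summed to 179 and 54.1 CPM in KO and to 92.4 to 476 CPM in WT, and muscle markers to 12.5 and 5.52 against 11.8 to 19.3 CPM. None of these members passed, and the sums overlapped for the sebocyte list and for the muscle list.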

How the data were processed

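RNA of sorted tumour cells was made into SMART-Seq v4 libraries, a kit without strand information, per the labels' protocols. Raw counts per Ensembl gene are what the authors deposited. STAR 2.3.0, Picard 1.100, HTSeq 0.6.0 and mm9 were used, per the submitters' processing notes. The sources used here name no annotation release. The 5 entries that name no gene (multiply aligned reads, 30.22% to 38.04% of records; no gene, 3.32% to 5.13%) were left out, leaving 37583 genes, of which 32860 (87.4%) matched a symbol. GENCODE M21 (GRCm38) served for names and copy sequences only.

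Counts were fitted with edgeR 4.0.16 (R 4.3.3; TMM, filterByExpr by group, quasi-likelihood F test, Benjamini-Hochberg at 0.05) in 1 fit of all 15 libraries. CPM used TMM-scaled totals. SEs were derived from F. The test was tried on simulated data. Replicates of the a6-low groups differed beyond sampling noise (chi-square over its degrees of freedom, 47.0 to 304).

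Members and 32 gene lists were chosen with earlier results of these data known. Named genes: Sirt6, Itga6, Cd34, Krt14, Krt10, Eno1, Eno1b and Ddx3y; genes past the threshold; with logCPM of at least 2 and no overlap, the 12 higher and 12 lower of smallest p, without predicted, pseudo-, unnamed or sex-linked genes; and the 2 (glycolysis 4) list members of smallest p. Other list members given by CPM alone, and the copies other than Eno1b, were chosen after their values were seen. Some genes that the rule names are not reported here. Mitochondrially encoded genes were not analysed here. Alternatives were DESeq2 1.42.0, its size factors, other filters, the 5 libraries alone, a replicate block, an Itga6 covariate and omitted libraries. Same-numbered a6-low and CD34-positive a6-high libraries of a genotype deviated together (r 0.178 to 0.447), and less evenly with CD34-negative a6-high libraries (0.041 to 0.458).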

Additional observations from a re-analysis of the deposited data

How the results depend on the processing

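The count of genes past the threshold for KO against WT (1 with edgeR) was 6 with DESeq2, 156 without a filter on low counts, 2 with a replicate block, 2 with Itga6 as a covariate and 6 without the 3 libraries of KO number 2. In a fit of the 5 a6-low libraries alone edgeR called 0, with 284 at an unadjusted p under 0.05. It was 1 with DESeq2 size factors, with a filter at 10 CPM and without KO2 and WT1, and 1 to 1 when each library was left out, Eno1b each time. Without a filter, 13 and 40 genes differed in KO effect from CD34-negative and CD34-positive a6-high cells; every other alternative gave 0, with DESeq2 at 196 and 242 genes at an unadjusted p under 0.05. The labels link same-numbered KO and WT libraries only by the number (r of their deviations from group means -0.368 and -0.314). Whether they share a batch was not tested. The replicate block called Eno1b and Ddx3y. With the animal label as replicate block the differences between sorts gave 0. For Eno1b the log2 fold change lay between 4.06 and 4.4 in every alternative and missed the threshold only with the 5 a6-low libraries. Over the genes named with a fold change and all alternatives, 760 values kept direction and side of the threshold, 19 newly passed (16 of them without the filter) and Eno1b once no longer did. Genes given by CPM alone were not counted there, among them Cxcl5 and Txnrd1. In KO1 these were below the WT mean (2.11 against 6.07 CPM and 37.3 against 40.3 CPM), so their direction rested on KO2. Of the list medians 356 moved by less than the spread between libraries and 62 by more. Depth limits the rarest genes, with WT2 shallowest (3 counts, 0.333 CPM).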
